A study of Homalium kanaliense and Homalium betulifolium with 6 samples.

Results

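The 68 contigs described here are leaf transcripts that were read in every plant of 2 tree species of the genus Homalium and that stood far higher in the nickel hyperaccumulator, Homalium kanaliense, than in Homalium betulifolium, which does not accumulate the metal. They were chosen by their measured values, out of 52634 contigs counted, on 3 conditions. Each had at least 10 reads in each of the 6 libraries and a mean of at least 10 CPM over the 3 H. kanaliense plants; CPM is the count scaled to a common library size with TMM, edgeR's correction for library composition. In addition, the lowest H. kanaliense plant was at least 4 times as high as the highest H. betulifolium plant. The height of these contigs in H. kanaliense is therefore the way they were picked and not a finding, and no test is given for it.

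Leaves of 3 wild plants per species were sequenced from polyA RNA, 1 plant per library, all from serpentine soil in New Caledonia. H. kanaliense grew at Creek pernod, Yate, and was collected on day 11 of month 6, and H. betulifolium was collected at La Tontouta on day 11 of month 9 that year. Nickel in the plants is not given in the labels, and species, site and date coincided, so their parts in any difference cannot be told apart. Reads of both species were counted on an H. kanaliense leaf transcriptome assembled from a single plant, so a lower count in H. betulifolium may reflect fewer transcripts or a sequence that matches the reference less well, and these cannot be told apart either. Fewer cells of a type in the leaf and less RNA per cell cannot be told apart in whole leaves.

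Nickel hyperaccumulators take up the metal from the soil, move it to the shoot in the xylem and store it in leaves, mostly in vacuoles. In other plants, metal transporters of the ZIP family and of the IREG or ferroportin family, and small ligands such as citrate, malate, histidine and nicotianamine, are known to take part in metal transport and storage. Which of the 68 contigs, if any, encode such proteins is not known here, because the contigs carry numbers and no gene name, sequence or location. No leaf or cell type marker could be looked up for the same reason, and several contigs may belong to 1 gene.

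Library totals ranged from 37057687 to 56616000 reads. Of all contigs counted, 1630, 1 and 1684 had no reads in H. kanaliense plants 1 to 3. In H. betulifolium plants 1 to 3 the counts were 8212, 5232 and 3264. The labels do not say which H. kanaliense plant gave the reference, and its part in these counts was not tested. The transcriptome of H. betulifolium plant 3 stood nearer to H. kanaliense than those of plants 1 and 2 did. The median contig of all 44048 tested differed by 0.75 to 0.87 (log2, absolute) between plant 3 and the H. kanaliense plants, against 0.92 to 1.19 for plants 1 and 2. For the contigs in which plant 3 was high, values without it are given beside those with it.

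The 68 contigs were the far end of a continuous range. At least 10 reads in every plant were found in 26249 contigs, and 12078 of these also had a mean of at least 10 CPM in H. kanaliense; the 12078 serve below as contigs of the same level. All H. kanaliense plants lay above all H. betulifolium plants in 1148 of the 12078, which is 9.50%, and in 14.6% of all contigs tested. A gap of at least 2 times between the lowest H. kanaliense and the highest H. betulifolium plant was found in 251 contigs, of at least 3 times in 107, of at least 4 times in the 68, of at least 8 times in 26, of at least 16 times in 10 and of at least 40 times in 3. With the species exchanged, the same conditions were met by 134 contigs. Not all contigs with such a gap are among the 68: in 96 more the level and the gap were met but at least 1 plant had under 10 reads, and 45 of these had under 10 reads in every H. betulifolium plant.

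**Figure D1:**
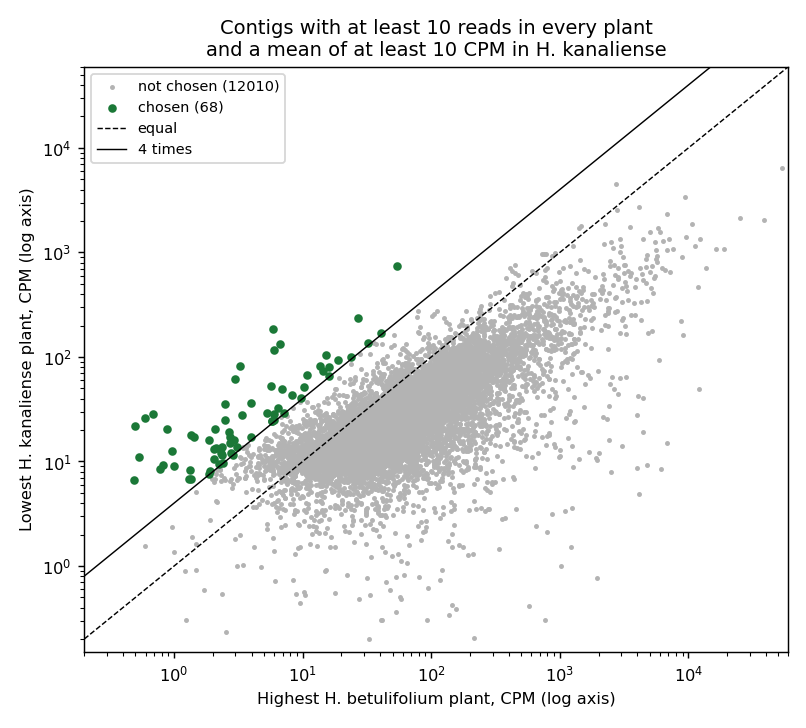
Lowest CPM of the 3 H. kanaliense plants (vertical) against the highest CPM of the 3 H. betulifolium plants (horizontal), both on log axes, for 12078 contigs that had 10 or more reads in each plant and a mean of at least 10 CPM in H. kanaliense. The 68 chosen contigs (green) lie above the solid line of a 4 times gap, and most other contigs (grey) lie below the dashed line of equality.

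The edges of the set were close to contigs outside it. Hkan_v1_contig_6794 and Hkan_v1_contig_8974 had the smallest gaps inside, at 4.002 and 4.01 times, and Hkan_v1_contig_364 and Hkan_v1_contig_3913 the largest outside, at 3.96 times each. On the level condition, Hkan_v1_contig_5277 was inside with a mean of 10.7 CPM in H. kanaliense and Hkan_v1_contig_6955 outside with 9.63 CPM. On the read condition, 6 of the 68 contigs had exactly 10 reads in 1 H. betulifolium plant: Hkan_v1_contig_1053, Hkan_v1_contig_3564, Hkan_v1_contig_3772, Hkan_v1_contig_4113, Hkan_v1_contig_5597 and Hkan_v1_contig_6231. Hkan_v1_contig_529 was left out for 9 reads in H. betulifolium plant 2, although it stood at 91.9, 375 and 688 CPM in H. kanaliense plants 1 to 3. That level would have put it second among the 68, with a mean of 385 CPM.

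In H. kanaliense the 68 contigs spanned more than 2 orders of magnitude. CPM is not corrected for contig length, so contigs are ordered here by reads and not by transcripts. Their mean level ran from 10.7 to 1513 CPM with a median of 32.1 CPM, close to the median of 27.5 CPM for the 12078 contigs of the same level. Of the 68, 23 had a mean under 20 CPM, 32 between 20 and 100 CPM, and 13 at 100 CPM or more. The mean in H. betulifolium ran from 0.391 to 26.3 CPM with a median of 2.10 CPM, and it was under 1 CPM in 16 contigs and at 10 CPM or more in 6. The ratio of the means had a median of 13.8 and ran from 4.78 to 76.4. Its medians were 13.8, 12.8 and 16.2 in the 3 level classes, from the lowest to the highest, and its highest values were 37.7, 73.1 and 76.4. The conditions of choice bear on this. The gap sets a lower bound, and the 10 reads in every plant limit the ratio most at low levels.

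Together the 68 contigs took 0.549%, 0.722% and 0.651% of all reads in H. kanaliense plants 1 to 3. In H. betulifolium they took 0.0178%, 0.0184% and 0.0335%. Exact binomial 95% intervals on these shares were narrow, from 0.720% to 0.725% for H. kanaliense plant 2 and from 0.0330% to 0.0341% for H. betulifolium plant 3, and they cover counting error only. A single contig made up much of the difference between the H. kanaliense plants and a part of that between the H. betulifolium plants. Without Hkan_v1_contig_184 the shares were 0.458%, 0.451% and 0.475% in H. kanaliense and 0.0176%, 0.0183% and 0.0275% in H. betulifolium.

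**Figure D2:**
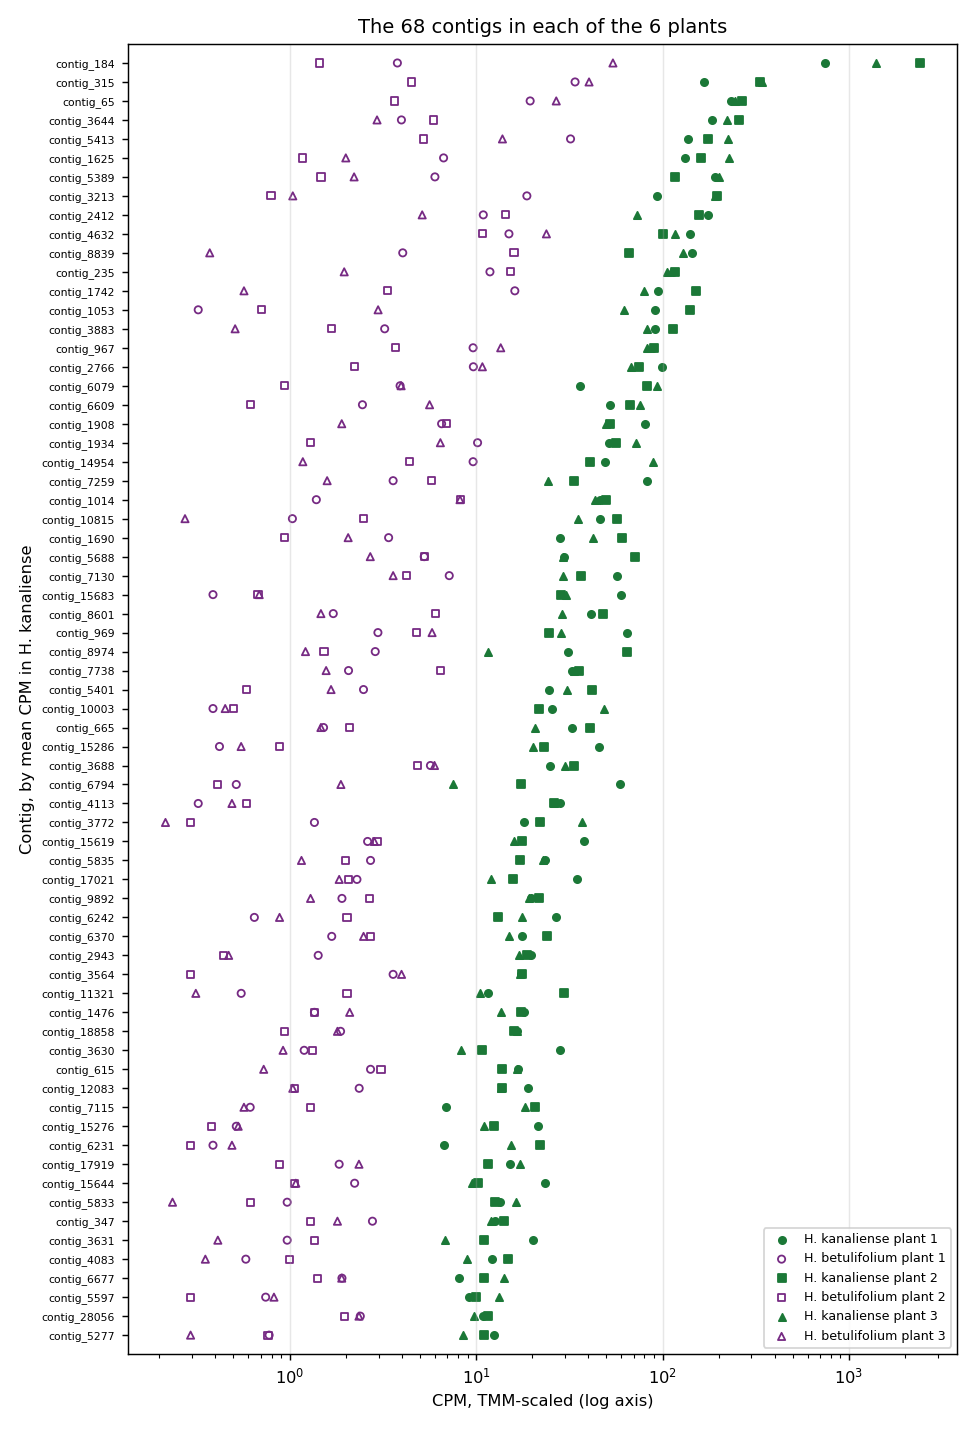
CPM of each of the 68 contigs (rows, ordered by mean CPM in H. kanaliense) in the 3 H. kanaliense plants (filled green) and the 3 H. betulifolium plants (open purple), on a log axis. Hkan_v1_contig_184 at the top runs from 742 to 2397 CPM in H. kanaliense and from 1.44 to 54.2 CPM in H. betulifolium, and the gap between the species is open in every row because the contigs were chosen for it.

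The most abundant contig of the set was Hkan_v1_contig_184, at 742, 2397 and 1400.5 CPM in H. kanaliense plants 1 to 3. In H. betulifolium it stood at 3.78, 1.44 and 54.2 CPM in plants 1 to 3, from 117, 49 and 2763 reads. H. kanaliense plant 2 was the highest and plant 1 the lowest of their species, and H. betulifolium plant 3 was far above plants 1 and 2. The contig made up 37.6% of the reads of the whole set in H. kanaliense plant 2 and 16.7% in plant 1. Its ratio of means, 76.4, was the highest of the 68, and its highest plant in H. betulifolium was 37.6 times its lowest. The spread rested on plant 3, which also made the ratio of means smaller. Without plant 3 the mean in H. betulifolium was 2.61 CPM in place of 19.8 CPM, and the ratio of means was 579.

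Hkan_v1_contig_315, the next in level, stood at 168, 334 and 343 CPM in H. kanaliense plants 1 to 3 and at 34.0, 4.50 and 40.4 CPM in H. betulifolium. It also had the highest mean of the set in H. betulifolium, 26.3 ± 19.1 CPM (SD, n = 3), where plant 2 was low and plants 1 and 3 were near each other. Hkan_v1_contig_65 followed with 234, 266 and 246 CPM in H. kanaliense and 19.5, 3.65 and 26.9 CPM in H. betulifolium. Plant 2 was again the lowest H. betulifolium plant, while the H. kanaliense plants lay within 1.14 times of one another. Hkan_v1_contig_3644 was at 185, 258 and 221 CPM in H. kanaliense and at 3.98, 5.89 and 2.94 CPM in H. betulifolium. Among the 4 most abundant contigs it was the one with the smallest spread between H. betulifolium plants, 2 times from lowest to highest.

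A gap of over 40 times was found in 3 contigs, all at moderate levels in H. kanaliense. Hkan_v1_contig_4113 stood at 28.3, 26.0 and 26.2 CPM in H. kanaliense plants 1 to 3 and at 0.323, 0.589 and 0.491 CPM in H. betulifolium, from 10, 20 and 25 reads. Its plants were close to one another in each species, and its gap of 44.2 times was the widest of the set. Hkan_v1_contig_10003 stood at 25.4, 21.8 and 48.3 CPM in H. kanaliense and 0.388, 0.5004 and 0.451 CPM in H. betulifolium, a gap of 43.5 times with plant 3 the highest in H. kanaliense. Hkan_v1_contig_15683 stood at 60.2, 28.6 and 30.4 CPM in H. kanaliense and 0.388, 0.677 and 0.687 CPM in H. betulifolium, a gap of 41.7 times with plant 1 the highest in H. kanaliense. Hkan_v1_contig_3644, described above, had the next widest gap, 31.5 times.

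The H. betulifolium values of many of these contigs rested on few reads. At least 1 H. betulifolium plant had 20 or fewer reads in 21 contigs, while in 11 contigs no H. betulifolium plant had under 100 reads. In H. kanaliense the lowest count of any of the 68 contigs in any plant was 336 reads. When the lower exact Poisson 95% limit of the lowest H. kanaliense plant was set against the upper limit of the highest H. betulifolium plant, 45 of the 68 contigs kept a gap of at least 4 times and all 68 one above 2 times. The smallest gap on this count was 2.94 times, in Hkan_v1_contig_28056, and those of Hkan_v1_contig_4113, Hkan_v1_contig_10003 and Hkan_v1_contig_15683 were 27.2, 25.7 and 26.8 times. These limits cover counting error of independent reads only. They were computed on the same counts by which the contigs were chosen for a gap of at least 4 times, so they are no test of it.

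Within H. kanaliense the 68 contigs did not share 1 order of plants, and how far they varied together was not measured. Plant 1 was the highest in 25, plant 2 in 28 and plant 3 in 15, and plant 3 was the lowest in 35. Among the 12078 contigs of the same level, plants 1 to 3 were the highest in 39.4%, 28.9% and 31.7%, and plant 3 was the lowest in 36.5%, against 51.5% of the 68. A contig was placed with 1 plant if that plant stood at least 1.5 times above both others. By this measure 14 of the 68 contigs (20.6%) were high in plant 1, against 6.52% of the 12078. Plant 2 stood out in 6 contigs (8.82%, against 3.53%) and plant 3 in 3 (4.41%, against 3.95%). Each plant is a single library and these shares were not tested.

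The 14 contigs high in plant 1 stood there at 1.53 to 3.43 times the next plant, with a median of 2.06 times, while plants 2 and 3 differed from each other by a median of 1.20 times. Hkan_v1_contig_15619 is an example, at 37.9, 17.7 and 16.01 CPM in plants 1 to 3. In H. betulifolium the same contig was the steadiest of the set, at 2.62, 2.94 and 2.85 CPM. Hkan_v1_contig_15683, with one of the widest gaps, was also among the 14. The 3 contigs high in plant 3 were Hkan_v1_contig_10003, Hkan_v1_contig_3772 and Hkan_v1_contig_14954, the last singled out after its values were seen. Hkan_v1_contig_3772 stood at 18.1, 22.1 and 36.8 CPM and Hkan_v1_contig_14954 at 49.4, 40.9 and 88.7 CPM in plants 1 to 3.

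**Figure D3:**
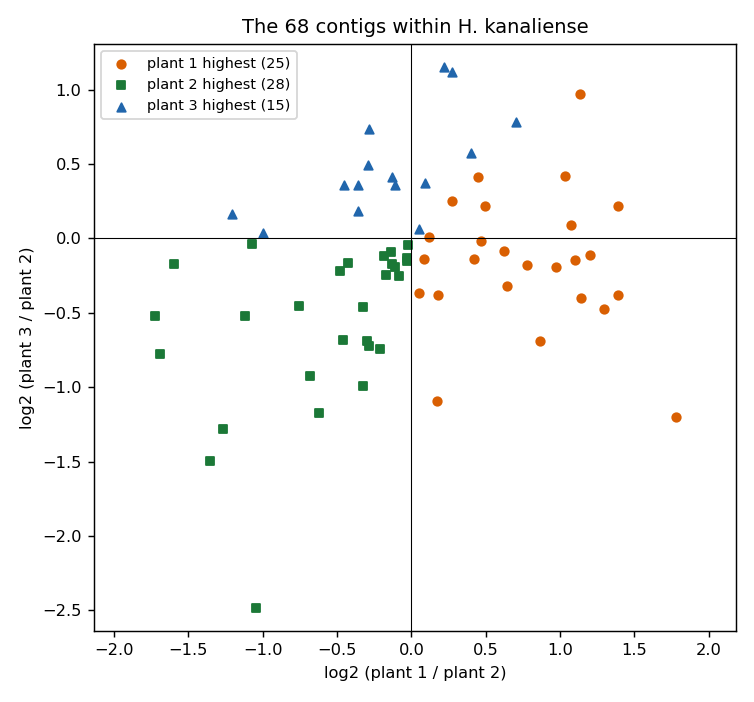
Each of the 68 contigs by its log2 ratio of H. kanaliense plant 1 to plant 2 (horizontal) and of plant 3 to plant 2 (vertical), with colour and symbol for the highest plant. Points spread in all directions from the origin: plant 1 is the highest in 25 contigs, plant 2 in 28 and plant 3 in 15.

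Some contigs were held at nearly 1 level in the 3 H. kanaliense plants and others varied several-fold. The steadiest was Hkan_v1_contig_3564, at 17.4, 17.6 and 17.1 CPM. In H. betulifolium the same contig ran from 0.294 CPM in plant 2 to 3.59 and 3.98 CPM in plants 1 and 3, a range of 13.5 times. Hkan_v1_contig_18858 was the next steadiest, at 16.5, 15.9 and 16.6 CPM in H. kanaliense, with 1.88, 0.942 and 1.81 CPM in H. betulifolium. At the other end, Hkan_v1_contig_6794 stood at 59.4, 17.3 and 7.54 CPM in H. kanaliense plants 1 to 3. Hkan_v1_contig_8974 stood at 31.3, 64.5 and 11.5 CPM, with plant 2 the highest. Both were at the inner edge of the set, where the lowest H. kanaliense plant, plant 3, set the gap.

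Taking the set as a whole, the highest H. kanaliense plant was a median of 1.71 times the lowest, against 1.40 times in the 12078 contigs of the same level. It was over 2 times the lowest in 27 of the 68 contigs (39.7%, against 18.4%) and within 1.5 times in 27 (39.7%, against 59.6%). In H. betulifolium the corresponding medians were 3.18 and 2.56 times, and the highest plant was over 4 times the lowest in 41.2% of the 68 contigs and 28.5% of the 12078. The coefficient of variation was larger in H. betulifolium than in H. kanaliense in 49 of the 68 contigs (72.1%) and in 86.6% of the 12078. Reads in H. betulifolium were far fewer for the 68 contigs than for the 12078, with a median over contigs of 38.5 and 670.0 reads in the lowest plant. The part of counting error in this spread was not tested, and the conditions of choice themselves bear on it.

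**Figure D4:**
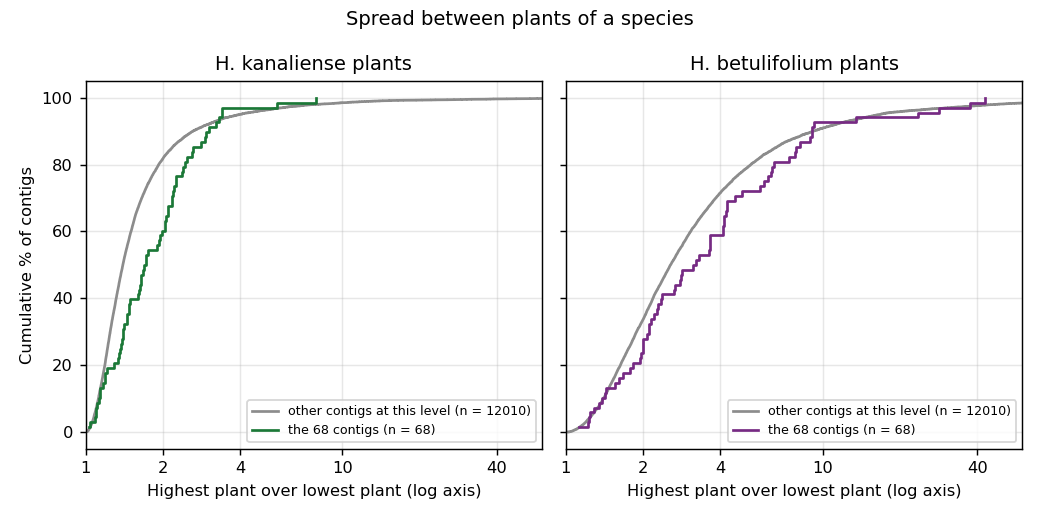
Cumulative percentage of contigs (vertical) by the ratio of the highest to the lowest plant of a species (horizontal, log axis, shown up to 60 times), for H. kanaliense (left) and H. betulifolium (right). The curve of the 68 contigs (coloured) lies to the right of that of the other contigs of the same level (grey) over most of its length, with medians of 1.71 and 3.18 times in the 2 species.

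Of the H. betulifolium plants, plant 1 had the highest median CPM over the set and was seldom the lowest on that scale. The order of the plants depends on the scaling, with TMM factors of 0.546, 0.918 and 1.12 in plants 1 to 3. As a share of all reads the set was smallest in plant 1. It took 0.0178%, 0.0184% and 0.0335% in plants 1 to 3. The median CPM over the 68 contigs was 2.43, 1.501 and 1.74 in plants 1 to 3, against 32.6, 31.6 and 28.6 in H. kanaliense plants 1 to 3. Plant 1 was the highest H. betulifolium plant in 24 contigs, plant 2 in 25 and plant 3 in 19, and they were the lowest in 10, 29 and 29. Plants 1 to 3 were the highest in 53.7%, 20.2% and 26.1% of the 12078 and the lowest in 15.1%, 43.6% and 41.3%. One plant stood at least 2 times above both others in 10 contigs for plant 1 (14.7%, against 17.4% of the 12078), in 7 for plant 2 (10.3%, against 2.94%) and in 4 for plant 3 (5.88%, against 7.91%).

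The 4 contigs high in H. betulifolium plant 3 were Hkan_v1_contig_184, given above, Hkan_v1_contig_1053, Hkan_v1_contig_6794 and Hkan_v1_contig_6609, the last singled out after its values were seen. Hkan_v1_contig_1053 stood at 0.323, 0.706 and 2.98 CPM in H. betulifolium plants 1 to 3, from 10, 24 and 152 reads, and at 91.2, 139.97 and 62.2 CPM in H. kanaliense. Hkan_v1_contig_6609 stood at 2.46, 0.618 and 5.63 CPM in H. betulifolium and at 52.2, 66.8 and 75.8 CPM in H. kanaliense. Without plant 3 the ratio of means was 189.9 in place of 73.1 in Hkan_v1_contig_1053, 42.2 in place of 22.4 in Hkan_v1_contig_6609 and 60.4 in place of 29.96 in Hkan_v1_contig_6794. Hkan_v1_contig_3213 showed another pattern, at 18.7, 0.795 and 1.04 CPM in H. betulifolium, so that plant 1 alone was high, and at 93.3, 196 and 191 CPM in H. kanaliense. Its ratio of means was 23.3 with plant 1 and 174 without it. The steadiest contigs in H. betulifolium were Hkan_v1_contig_15619, given above, and Hkan_v1_contig_28056, at 2.39, 1.97 and 2.35 CPM. In H. kanaliense the latter stood at 10.9, 11.5 and 9.69 CPM, and its ratio of means, 4.78, was the smallest of the set.

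H. betulifolium plant 3, which over all contigs lay nearest to H. kanaliense, was not nearest over the 68 on the TMM scale. Over these contigs the median difference from the H. kanaliense plants was 4.12 to 4.54 (log2, absolute) for plant 3, 3.82 to 4.19 for plant 2 and 3.34 to 3.75 for plant 1. The choice of contigs with every H. betulifolium plant low bears on these values. So does the scaling, with TMM factors of 0.546 in H. betulifolium plant 1 and 1.12 in plant 3. These median differences were not computed under library totals. As a share of all reads the set took 0.0178%, 0.0184% and 0.0335% in H. betulifolium plants 1 to 3, so there it was largest in plant 3.

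An edgeR fit over all contigs gives the background for the set. Of 44048 contigs tested, 282 (0.640%) were higher in H. kanaliense at an adjusted p under 0.05 by the quasi-likelihood test of edgeR, adjusted after Benjamini and Hochberg. Of the 68 contigs, 40 were called and 28 were not, which is given as a description only, since the set was chosen on the same contrast. Their median log2 fold change was 3.79, from 2.26 to 6.25, against 0.0044 over all contigs tested. The contigs that were not called had adjusted p-values of 0.052 to 0.220 in this fit and a median coefficient of variation of 0.721 in H. betulifolium, against 0.425 in those called. In H. kanaliense the corresponding medians were 0.261 and 0.276. The test uses the spread within the species, so these values are not independent of the calls. Hkan_v1_contig_184 was among those not called, at 6.25 ± 1.59 (log2 fold change and its SE) with 0.137 as the adjusted p of edgeR. Without H. betulifolium plant 3 its log2 fold change was 9.12, with an edgeR adjusted p of 0.0314, and with all 6 plants it was also called by limma-voom (7.48, adjusted p of 0.0412) and DESeq2 (6.24, adjusted p of 9.6e-06). Over all its alternatives the adjusted p ran from 9.6e-06 to 0.328. Hkan_v1_contig_315 and Hkan_v1_contig_65 were not called by edgeR either, with adjusted p-values of 0.129 and 0.0759, and stayed uncalled in edgeR without plant 3, at 0.102 and 0.0595. With all 6 plants DESeq2 called both, with adjusted p-values of 0.0018 and 2.4e-05. By limma-voom Hkan_v1_contig_65 was called (adjusted p of 0.0397) and Hkan_v1_contig_315 was not (0.0876). Of the 13 contigs at 100 CPM or more 5 were called by edgeR with all 6 plants, and of the 55 below it 35. None of the 68 was called when any 1 of the H. kanaliense plants, or H. betulifolium plant 1 or 2, was left out, although at least 67 had an unadjusted p under 0.05 in each of these edgeR fits. No other contig was called in those fits either. Without H. betulifolium plant 3 the edgeR fit called 32 of the 68, with a median log2 fold change of 3.61. Over all 46926 contigs tested, that fit called 700 in both directions, against 390 of 44048 with all 6 plants.

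A plant that took no part in the choice gives values of its own that the choice did not fix. The 3 conditions were therefore applied to 5 plants and the contigs so chosen were read in the plant left out. The plants of the other species, against which it was read, did take part in the choice. The contigs used as background were not chosen for a gap. Part of the difference from that background is therefore built in. Without H. kanaliense plant 1 the conditions chose 101 contigs, and plant 1 lay above every H. betulifolium plant in 92 of them (91.1%) and at least 4 times above in 64 (63.4%). Plant 2 lay above every H. betulifolium plant in 88 of the 88 contigs chosen without it and at least 4 times above in 68 (77.3%). Plant 3 did so in 88 of 95 (92.6%) and by 4 times in 66 (69.5%). Only 1 of all contigs counted had no reads in plant 2, and whether this bears on its reading was not tested. Among all contigs that met the read and level conditions in the same 5 plants, the plant left out lay above every H. betulifolium plant in 16.1% to 17.7% and 4 times above in 1.09% to 1.29%.

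Left-out H. betulifolium plants were less alike in this respect. Without plant 2, 116 contigs were chosen, and plant 2 lay below every H. kanaliense plant in 110 of them (94.8%) and at least 4 times below in 83 (71.6%). Without plant 1, 160 contigs were chosen, and plant 1 lay below in 122 (76.2%) and 4 times below in 74 (46.2%). Without plant 3, 190 contigs were chosen, 63 of them among the 68, and plant 3 lay below every H. kanaliense plant in 116 (61.1%) and 4 times below in 67 (35.3%). In the other 74 contigs plant 3 reached or passed at least 1 H. kanaliense plant. Among all contigs that met the read and level conditions in the same 5 plants, the shares that lay below were 25.3%, 43.2% and 37.2% for plants 1 to 3, and 4 times below 2.95%, 9.22% and 3.82%. With 1 plant per reading these shares have no replicate error and were not tested, and the scale of the plant read was set with all 6 libraries.

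**Figure D5:**
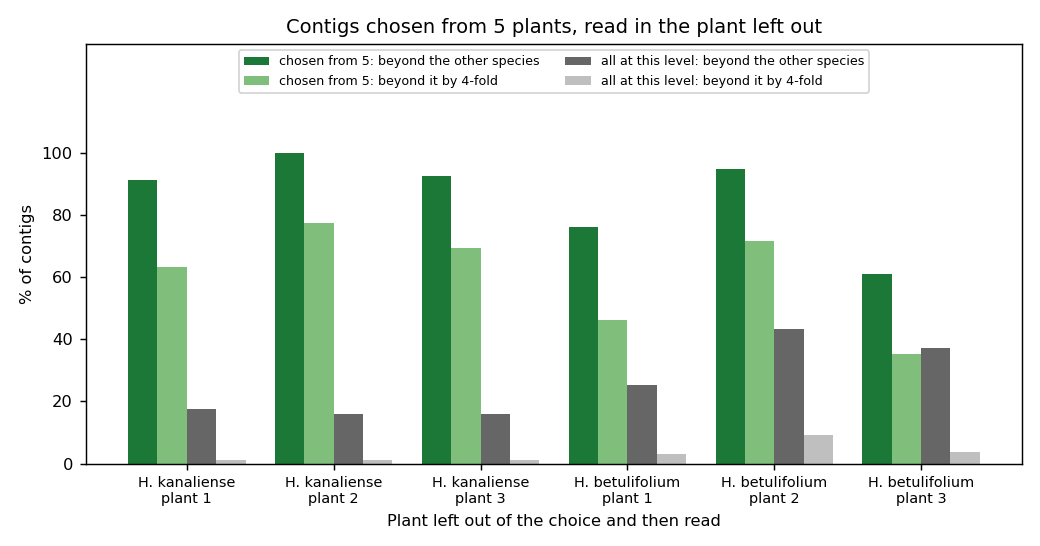
Percentage of contigs (vertical) in which the plant left out (horizontal) lay beyond every plant of the other species, at all or by at least 4-fold, for contigs chosen from the other 5 plants (green) and for all contigs that met the read and level conditions (grey). Each bar of the chosen contigs is higher than the grey bar of the same measure, and they are lowest for H. betulifolium plant 3, at 61.1% and 35.3%. The contigs in grey were not chosen for a gap.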

How the data were processed

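The authors deposited 1 file per plant with whole-number read counts per contig of an H. kanaliense leaf transcriptome, per the file headers and the series' design text. Libraries were made from DNase-treated total RNA with a strand-specific polyA kit, per the labels' protocols; for the assembler, aligner and counting tool, names were not given in the sources used here. Groups came from the sample titles. Contigs were kept by filterByExpr (minimum count 10, minimum total 15) and scaled by TMM in edgeR 4.0.16 (R 4.3.3), and glmQLFit (robust) with glmQLFTest compared the species over all genes, that is all 44048 contigs kept, with the SE as the log2 fold change over the square root of F. TMM factors ran from 0.546 to 1.26. The fit was checked on simulated data. Alternatives used DESeq2 1.42.0 and limma 3.58.1. Named contigs were the extremes of the set: the 4 highest in level, the 4 with the widest gap, the 2 highest in H. betulifolium, the 2 steadiest and 2 most variable in each species, and those at the edges of each condition. The members, the rule and the alternatives were chosen with earlier results of these data known. Compared over contigs that together had 20 or more reads, no pair of libraries gave a reduced chi-square under 110.3, so no library was counted as a repeat. Each library is 1 individual, per the labels' protocols. Figures were drawn with matplotlib 3.10.9.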

Additional observations from a re-analysis of the deposited data

How the results depend on the processing

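The 3 conditions gave 59 contigs under median-of-ratios scaling, 63 when low counts were kept in, 49 with 20 or more reads in each library, 102 with at least 1 read, 81 with a mean of at least 5 CPM, and 88 to 101 without 1 H. kanaliense plant. The number moved further with library totals (136, all 68 among them), a gap of 2 times (251) or 8 times (26), a mean of at least 20 CPM (45), and 1 H. betulifolium plant left out (116 to 190). With any 1 plant left out, 63 to 67 were among the 68. Library totals moved the median log2 fold change of all contigs from 0.0044 to 0.48 and that of the 68 from 3.79 to 4.36, so that relative to all contigs the 68 stood at 3.79 and 3.88. The median of the 68 was 3.95 with at least 10 reads in every plant, 4.04 by limma-voom, 3.94 with the replicate block, and 3.61 to 3.98 with 1 plant left out. The 390 contigs called in both directions became 560 with library totals, 376 under median-of-ratios scaling and 366 when low counts were kept in. The count was 179 with at least 10 reads in every plant, 3280 by DESeq2, 795 by limma-voom, and 0 to 700 with 1 plant left out. The 40 calls among the 68 became 68 by DESeq2, 59 by limma-voom, 56 with library totals and 46 with at least 10 reads in every plant. They became 37 when low counts were kept in, 35 under median-of-ratios scaling, and 0 to 32 with 1 plant left out. In the edgeR fits on 5 plants that called none, 4113 to 7605 contigs reached an unadjusted p below 0.05; DESeq2 and limma-voom were fitted to all 6 plants only. Under the replicate block the edgeR fit called 0 contigs, 0 of them among the 68, with 4722 at an unadjusted p under 0.05. Plants of the same number in the 2 species came from different sites and dates. Their correlations of deviation from the species mean were -0.0013, -0.073 and 0.152, which alone cannot show whether the numbers pair plants. The 23 named contigs kept their direction in 298 of 298 alternative values, which the choice without overlap nearly fixed; 76 lost and 22 gained a call. The cause of these moves was not tested.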

Other observations

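Contig numbers are the only property of the 68 contigs beside their counts. Of the 68, 49 (72.1%) had a number up to 7500, against 46.9% of the 12078 contigs of the same level. The limit of 7500 was set by hand and no other limit was tried. The median number was 5407 in the 68 and 8095.5 in the 12078. The Pearson correlation of H. kanaliense levels, as log2(CPM + 0.5), was 0.469 between contigs with adjacent numbers and 0.436 between contigs 1000 numbers apart, over 18162 and 17649 pairs with at least 10 reads in every plant. These pairs share libraries and are given as a description. The difference between the species was nearly unrelated between adjacent numbers, at 0.042.

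In 3 pairs of the 68 contigs the numbers lay at most 2 apart, singled out after their values were seen. Hkan_v1_contig_3630 and Hkan_v1_contig_3631 had like profiles, at 28.3, 10.8 and 8.31 CPM and at 20.1, 11.0 and 6.83 CPM in H. kanaliense plants 1 to 3, and at 1.20, 1.32 and 0.922 CPM and at 0.970, 1.35 and 0.412 CPM in H. betulifolium. Both were highest in H. kanaliense plant 1 and in H. betulifolium plant 2. Hkan_v1_contig_967 and Hkan_v1_contig_969 differed: the first stood at 88.5, 90.1 and 82.1 CPM in H. kanaliense and the second at 64.3, 24.5 and 28.5 CPM. Hkan_v1_contig_5833 and Hkan_v1_contig_5835 were at 13.5, 12.6 and 16.4 CPM and at 23.3, 17.1 and 22.8 CPM there. Whether the contigs of a pair come from 1 gene was not tested.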
